A study of Mus musculus with 9 samples.

Results

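The genes described here are 36 nuclear genes for subunits of the last steps of oxidative phosphorylation: 9 of complex III, 1 for cytochrome c, 11 of complex IV and 15 of ATP synthase. They were chosen by symbol, from a list of subunits, among the 28111 genes of the deposited table, with earlier results of these data known. All 36 were measured and passed the filter on low counts that left 14817 genes. They were read in 9 RNA sequencing libraries of induced regulatory T cells (Treg), 4 labelled Glut1 transgenic (Glut1Tg) and 5 labelled wild type (WT), all from C57BL/6J mice. Glut1 is the glucose transporter encoded by Slc2a1. The labels also give a mouse group: Glut1Tg replicates 2, 3 and 4 and WT replicates 1 and 3 belong to mouse group 1, and Glut1Tg replicate 1 and WT replicates 2, 4 and 5 to mouse group 2. The labels do not say what a mouse group is, how old the mice were, how or how long the cells were cultured, or which promoter drives the transgene and in which cells. Nor do they say if each library is its own animal or culture. The p-values therefore measure the spread between libraries, which may be technical.

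Complex III takes electrons from ubiquinol and hands them to cytochrome c, a small protein that carries them to complex IV, where oxygen is reduced to water. Both complexes pump protons across the inner mitochondrial membrane, and ATP synthase (complex V) lets the protons flow back through its ring of c subunits to drive the making of ATP in its F1 head. Regulatory T cells are known to lean on oxidative metabolism more than effector T cells do. Most subunits are encoded in the nucleus, and a few, such as cytochrome b and the core of complex IV, in mitochondrial DNA.

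Promoter sequences are shown for 4 members whose values are given below, because they are short stretches in which known motifs of regulators of respiratory genes can be read. A RefSeq promoter (assembly GRCm38.p6) was matched by symbol to 29 of the 36 members, in 32 windows of 250 bases before the start. Members without an entry were Uqcrb, Uqcrc2, Uqcrq, Cyc1, Cox4i1, Cox6c and Atp5a1. The windows lie on the minus strand at chr15:102671048-102671297 (Atp5g2), chr5:115348959-115349208 (Cox6a1), chr6:50566570-50566819 (Cycs) and chr10:80406822-80407071 (Uqcr11), and read 5′ to 3′ with matches in capitals:
Atp5g2: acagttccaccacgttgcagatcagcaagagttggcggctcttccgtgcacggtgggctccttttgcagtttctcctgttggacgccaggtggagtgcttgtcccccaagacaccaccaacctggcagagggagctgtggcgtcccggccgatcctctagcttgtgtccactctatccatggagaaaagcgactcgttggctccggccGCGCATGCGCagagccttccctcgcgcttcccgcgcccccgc
Cox6a1: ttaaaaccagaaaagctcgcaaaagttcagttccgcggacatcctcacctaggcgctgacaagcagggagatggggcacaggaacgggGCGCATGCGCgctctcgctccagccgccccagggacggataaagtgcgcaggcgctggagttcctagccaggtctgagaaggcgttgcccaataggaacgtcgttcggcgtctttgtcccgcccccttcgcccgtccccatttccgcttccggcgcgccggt
Cycs: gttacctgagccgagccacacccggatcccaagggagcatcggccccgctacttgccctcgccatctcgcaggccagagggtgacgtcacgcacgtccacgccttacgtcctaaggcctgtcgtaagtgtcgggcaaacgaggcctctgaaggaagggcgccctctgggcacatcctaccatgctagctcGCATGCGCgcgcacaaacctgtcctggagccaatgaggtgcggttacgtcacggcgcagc
Uqcr11: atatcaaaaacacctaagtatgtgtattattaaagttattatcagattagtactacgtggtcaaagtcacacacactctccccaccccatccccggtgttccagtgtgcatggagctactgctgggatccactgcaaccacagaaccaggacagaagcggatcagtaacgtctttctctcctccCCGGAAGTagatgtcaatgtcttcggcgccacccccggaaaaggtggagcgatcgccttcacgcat

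In the first 3 windows the capitals mark GCATGCGC or its reverse complement GCGCATGC, letters of the motif of NRF1, a factor known to act on respiratory genes. In Atp5g2 and Cox6a1 both strands match in an overlapping run. The letters stood in 5 of 32 member windows (15.6%; Atp5g2, Atp5k, Atp5l, Cox6a1 and Cycs), against 739 of all 32817 windows of the same length (2.25%). CCGGAAGT or ACTTCCGG, of the ETS factor GABPA (NRF2), stood in 3 member windows (9.38%; Atp5h, Uqcr11 and Uqcrh) against 2.88% of all windows. AAGATGGC or GCCATCTT, of YY1, stood in 1 member window (3.12%; Atp5j) against 1.56%. These matches are descriptions of the letters only. The NRF1 letters were shortened after promoter windows had been seen, so their share in members against all windows is not a test. The windows printed above all hold a match, whereas most of the 32 member windows hold none. The GENCODE M21 annotation (GRCm38), used for gene positions below, starts Atp5g2 further upstream, so its window lies within the annotated gene.

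Reads were counted per gene, and levels are given as CPM, counts scaled to a common library total, with totals adjusted by edgeR's trimmed mean of M values (TMM). Total counts ran from 20881035 to 31196428 per library. Slc2a1 stood at 260.2 to 496 CPM in the Glut1Tg libraries and at 29.7 to 58.7 CPM in WT. Foxp3, the defining factor of Treg, was at 621 to 1164 CPM in every library. All 10 genes of the Treg marker list used were detected in all 9. That list includes Cd4, Cd3e, Cd3d and Cd3g, which are not particular to Treg, so its sum is not a measure of Treg alone. The summed level of the list was lowest in Glut1Tg replicate 3, at 3710 CPM. It was highest in Glut1Tg replicate 1 and WT replicate 2, at 6803 and 6577 CPM, against 4422 to 4892 CPM in the other 6. The genes of the list did not share a direction. Between mouse groups (2 over 1), 5 had positive and 5 negative fitted log2 fold changes, from -0.71 to 2.32. The Glut1Tg replicate 1 and WT replicate 2 libraries stood apart from the other 7 on the first principal component (50.7% of the variance) and Glut1Tg replicate 3 on the second (20.4%). In replicate 1 of Glut1Tg and replicate 2 of WT, the 10 proliferation genes summed to 5278 and 5139 CPM, against 940 to 2262 CPM in the others. Glut1Tg replicate 3 held 2593 CPM of 10 mast cell and basophil markers (other Glut1Tg libraries 92.8 to 659 CPM, WT 128 to 856 CPM), with Cpa3 at 1670.0 CPM. It held 410 CPM of 10 myeloid markers (others 5.64 to 31.5 CPM) and 1020 CPM of 8 erythroid and platelet markers (others 4.27 to 273 CPM). None of these 28 genes was at 0 in it, which also held for Glut1Tg replicate 2 and WT replicates 1 and 4. In such bulk samples fewer cells of a type and less RNA per cell cannot be told apart.

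Glut1Tg libraries were compared with WT libraries for every gene with edgeR's quasi-likelihood test, with mouse group as a second term. In this comparison 35 of the 36 members had a positive log2 fold change (52.4% of all genes did), yet no member passed the test. Differences between the 3 complexes were not tested. The median log2 fold change, Glut1Tg over WT, was 0.41 for complex III (9 of 9 positive, range 0.10 to 0.70), 0.42 for complex IV (10 of 11, -0.30 to 0.81) and 0.40 for ATP synthase (15 of 15, 0.18 to 0.65), against 0.02 over all genes. Among 4548 genes with a mean of at least 50 CPM the median was 0.03. At an adjusted p under 0.05 in edgeR, 0 of 36 members were called, on a background of 0.00675% of genes (1 gene, Slc2a1), and member adjusted p ran from 0.681 to 0.890. At an unadjusted p under 0.05, 16 members were higher in Glut1Tg (background 4.5%) and 0 lower: 5 of complex III, 5 of complex IV and 6 of ATP synthase. DESeq2 and limma-voom also called 0 members at an adjusted p under 0.05, with 16 and 13 members under an unadjusted p of 0.05. The shares of all genes under these 2 methods are not given here. All 4 Glut1Tg libraries stood above all 5 WT libraries in 5 members, Uqcrq, Cox5b, Cox7c, Atp5g2 and Atp5e (background 1.01%).

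High levels of the members were found mainly in 2 of the 4 Glut1Tg libraries. Relative to the WT mean, the mean log2 level of complex III was 0.49, 0.07, 0.75 and 0.06 in Glut1Tg replicates 1 to 4 and ran from -0.11 to 0.17 in WT. For complex IV it was 0.33, 0.16, 0.92 and 0.15 in Glut1Tg replicates 1 to 4, against -0.13 to 0.12 in WT. ATP synthase was at 0.51, 0.06, 0.67 and 0.08 in Glut1Tg, and at -0.19 to 0.27 in WT. Replicates 1 and 3 of Glut1Tg stood above every WT library for all 3 complexes, while replicates 2 and 4 lay above all WT libraries for complex IV only. In 27 of 36 members Glut1Tg replicates 1 and 3 were both above the other 7 libraries (7.34% of all genes), a pattern noticed after the values were seen: 7 of 9 in complex III, 9 of 11 in complex IV and 11 of 15 in ATP synthase. These are the libraries with the high proliferation genes (replicate 1) and the mast cell, myeloid and platelet markers (replicate 3) given above, whose part in the result was not tested, nor was that of the Treg markers. WT replicate 2 had proliferation genes as high as Glut1Tg replicate 1, and its complex means were 0.17, 0.12 and 0.27.

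**Figure D1:**
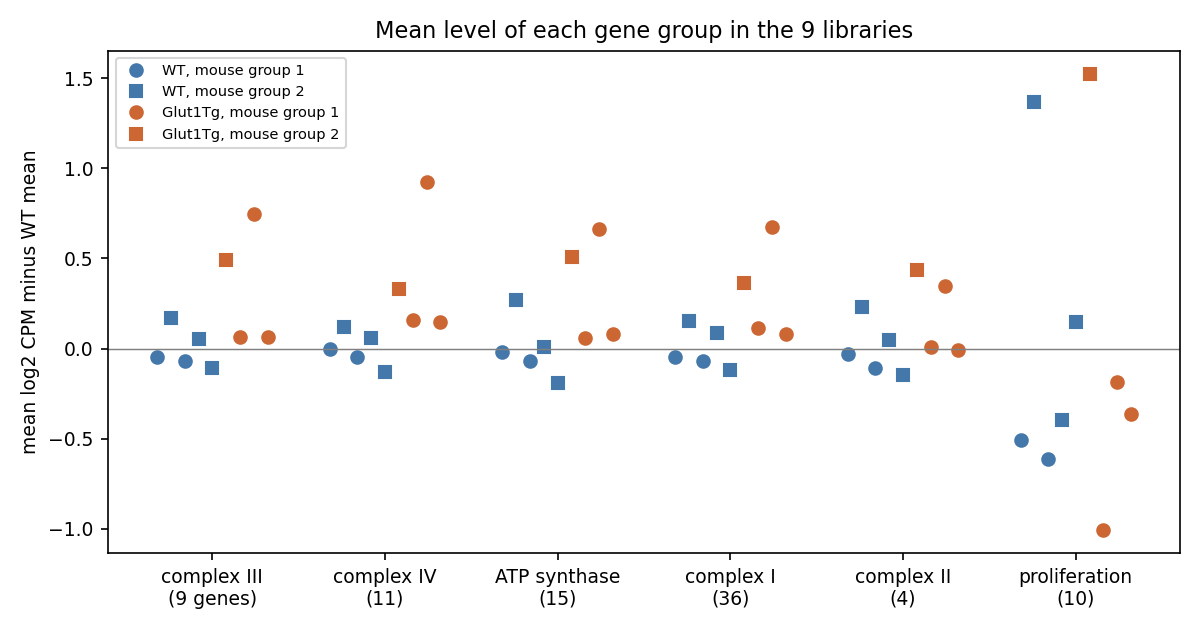
Mean log2 CPM of each gene group minus its WT mean (y axis), one point per library, for complexes III, IV, ATP synthase, I and II and proliferation genes (x axis, number of genes in brackets); colour gives genotype and shape mouse group. For complexes III, IV and ATP synthase the highest Glut1Tg point lies at 0.75, 0.92 and 0.67, and replicates 2 and 4 of Glut1Tg lie at 0.06 to 0.16.

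Leaving out libraries moved the median log2 fold changes by genotype, which stayed above 0 in the fits given here. Without Glut1Tg replicate 3 the medians were 0.23, 0.23 and 0.24 for complexes III, IV and ATP synthase, and without Glut1Tg replicate 1 they were 0.33, 0.37 and 0.33. With both left out they were 0.14, 0.17 and 0.09. In mouse group 1 alone (3 Glut1Tg, 2 WT) they were 0.36, 0.40 and 0.36, and in mouse group 2 alone (1 Glut1Tg, 3 WT) 0.40, 0.34 and 0.45. The count of members at an unadjusted p under 0.05 fell from 16 to 4 without Glut1Tg replicate 1, 9 without Glut1Tg replicate 3, and 7, 6, 9 and 8 without WT replicates 1, 3, 4 and 5. It was 15 without WT replicate 2, 21 without Glut1Tg replicate 2 and 17 without Glut1Tg replicate 4. Mouse group 1 alone gave 0, no mouse group term gave 9, and the replicate block gave 9 with the mouse group term and 0 without it. The share of all genes under that p is not given for these refits. Changes in the count are therefore not a result about the members alone.

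In the heat map of all members the red columns of Glut1Tg replicates 1 and 3 run through nearly every row. The exceptions in replicate 1 are Uqcrh, Cox4i1 and Cox7a2l, which lie below the WT mean there. Replicates 2 and 4 of Glut1Tg are pale in most rows.

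**Figure D2:**
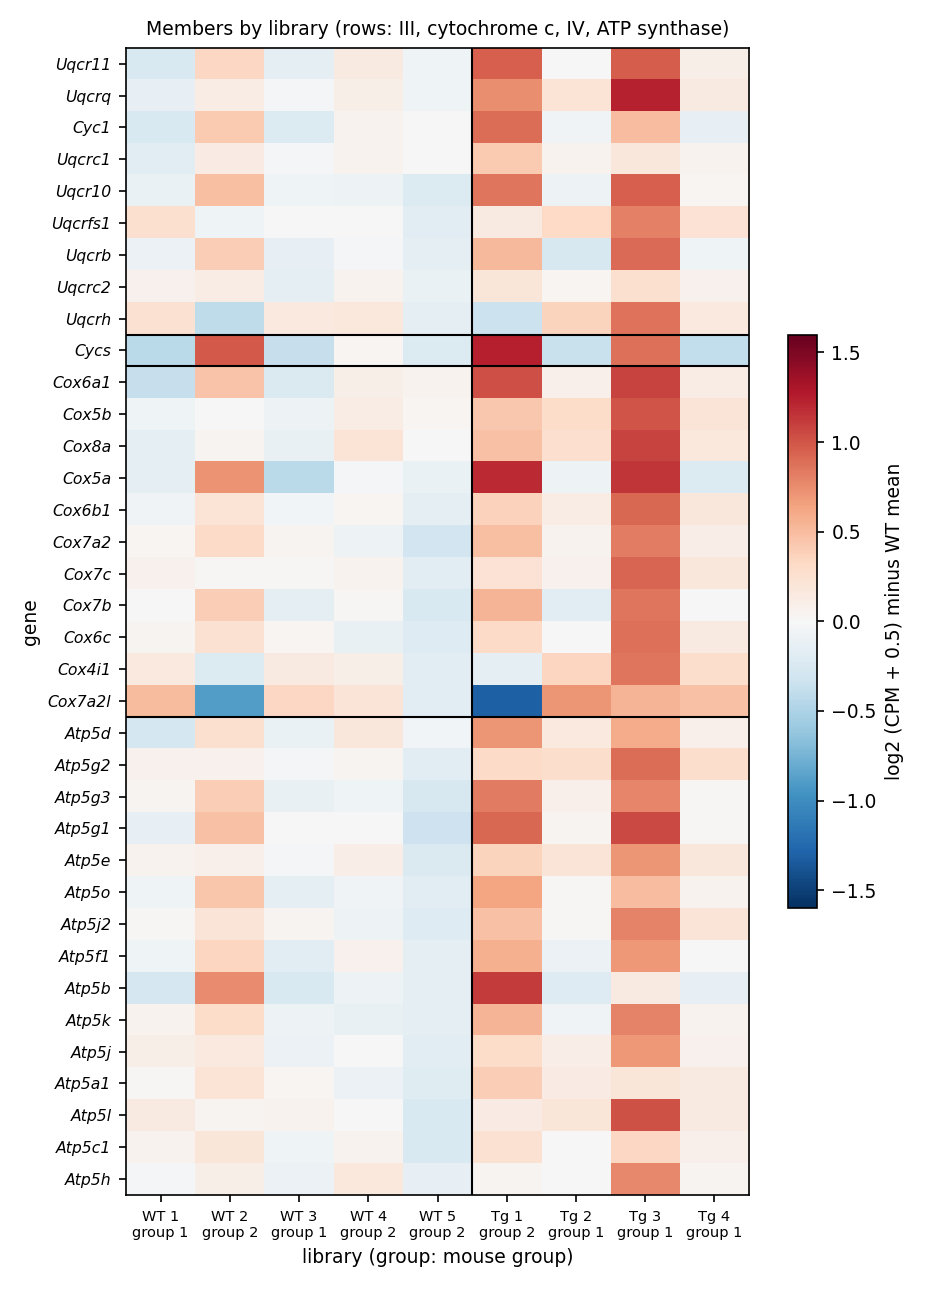
log2 (CPM + 0.5) of each of the 36 members (rows, grouped as complex III, cytochrome c, complex IV and ATP synthase) minus its WT mean, in 9 libraries (columns, with mouse group); red is above and blue below the WT mean. Glut1Tg replicate 3 was the highest library in 26 of 36 members (72.2%, against 21.3% of all genes). Glut1Tg replicate 1 was the highest in 9 (25%), near its share of all genes (22.6%).

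In complex III the small subunits Uqcr11 and Uqcrq had the largest genotype differences and the core proteins among the smallest. Uqcr11, a small membrane subunit encoded at chr10:80402997-80406830, was at 70.0, 35.9, 70.6 and 38.3 CPM in Glut1Tg replicates 1 to 4, against 30.1, 45.2, 32.2, 39.8 and 34.1 CPM in WT replicates 1 to 5. Uqcrq, a small subunit near the ubiquinone-binding cytochrome b, measured 49.1, 58.3, 52.7, 57.5 and 51.3 CPM in the 5 WT libraries and 90.5, 62.6, 127 and 59.1 CPM in Glut1Tg replicates 1 to 4. Fitted fold changes, Glut1Tg over WT, were 1.63 (95% interval 1.15 to 2.30) for Uqcr11 and 1.63 (95% interval 1.13 to 2.35) for Uqcrq. Uqcr11 was high in Glut1Tg replicates 1 and 3 only and overlapped between the genotypes, while Uqcrq did not overlap, its lowest Glut1Tg library lying just above WT replicate 2. Cyc1, cytochrome c1, the subunit that passes electrons to cytochrome c, was at 148, 76.0, 111 and 72.2 CPM in Glut1Tg replicates 1 to 4, against 66.5, 106, 67.7, 82.5 and 78.6 CPM in WT replicates 1 to 5. For Cyc1 the fold was 1.42 (95% interval 1.08 to 1.87), and WT replicate 2 was the highest of WT and close to Glut1Tg replicate 3. Uqcrc1, a core protein on the matrix side, measured 135, 167, 149.6, 158 and 151 CPM in the 5 WT libraries and 202, 158, 173 and 158 CPM in Glut1Tg replicates 1 to 4. The fold for Uqcrc1 was 1.19 (95% interval 1.01 to 1.41), with overlapping genotypes.

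Uqcrfs1, the Rieske iron-sulfur protein, was at 125, 141, 199 and 133 CPM in Glut1Tg replicates 1 to 4, against 136, 108, 113, 113 and 101 CPM in WT replicates 1 to 5. Here replicate 3 of Glut1Tg was high and replicate 1 lay within the WT range, and the fold was 1.23 (95% interval 0.967 to 1.56). Of the other complex III members Uqcr10, Uqcrb, Uqcrc2 and Uqcrh, fitted folds ran from 1.07 (Uqcrh) to 1.5 (Uqcr10). Uqcrh, the hinge protein that helps cytochrome c1 bind cytochrome c, measured 280.2, 178, 264, 266 and 213 CPM in the 5 WT libraries and 187, 303, 434 and 264 CPM in Glut1Tg replicates 1 to 4. Uqcrh was lower in Glut1Tg replicate 1 and WT replicate 2 than in the other 7 libraries, opposite to Cyc1, in which those libraries were high. It is given for that pattern, chosen after its values were seen.

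Cycs, somatic cytochrome c, at chr6:50562563-50566538, was at 104, 33.9, 80.9 and 33.0 CPM in Glut1Tg replicates 1 to 4, against 32.3, 86.4, 33.6, 44.5 and 37.4 CPM in WT replicates 1 to 5. High Cycs levels were seen in 3 libraries, Glut1Tg replicates 1 and 3 and WT replicate 2, and the remaining 6 lay between 32.3 and 44.5 CPM. The fold was 1.62 (95% interval 0.948 to 2.78), and Cycs had the widest spread of all members over the 9 libraries (CV 52.1%; the narrowest was Uqcrc2, 8.85%). Its testis form Cyct had no more than 0.04 CPM in any library.

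Complex IV held the largest positive fitted difference of the 36 members and, with mouse group in the model, the only negative one (Cox7a2l). Cox6a1, the widely expressed form of subunit 6A, at chr5:115345642-115348981, measured 74.1, 132, 81.8, 102 and 100.2 CPM in the 5 WT libraries and 196, 102, 204 and 105 CPM in Glut1Tg replicates 1 to 4. The group levels were 152 ± 56.0 CPM (SD, n = 4) in Glut1Tg and 98.1 ± 22.4 CPM (SD, n = 5) in WT, and the fold of 1.76 (95% interval 1.23 to 2.51) was the largest of the members. Glut1Tg replicates 1 and 3 were high, WT replicate 2 came next, and replicates 2 and 4 of Glut1Tg lay within the WT range. Cox5b, a zinc-binding subunit on the matrix side, was at 121, 109.7, 180.3 and 103 CPM in Glut1Tg replicates 1 to 4, against 85.0, 89.8, 84.8, 97.1 and 91.5 CPM in WT replicates 1 to 5. Cox5b did not overlap between genotypes, and its fold was 1.45 (95% interval 1.08 to 1.93). Cox8a, a small membrane subunit, measured 129.8, 149, 133, 168 and 146 CPM in the 5 WT libraries and 199.7, 175, 306 and 163 CPM in Glut1Tg replicates 1 to 4. The genotypes overlapped in Cox8a, whose fold was 1.496 (95% interval 1.08 to 2.08).

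Cox5a, a matrix-side subunit, was at 155, 63.6, 149 and 57.6 CPM in Glut1Tg replicates 1 to 4, against 60.2, 111, 49.8, 66.6 and 62.4 CPM in WT replicates 1 to 5. In Cox5a the same 3 libraries were high as in Cycs, and the fold was 1.75 (95% interval 1.06 to 2.87). Cox4i1, the widely expressed form of subunit 4, a regulatory subunit that binds adenine nucleotides, measured 363, 280.1, 359, 348 and 289 CPM in the 5 WT libraries and 294, 415, 592 and 397 CPM in Glut1Tg replicates 1 to 4. Cox4i1 was high in Glut1Tg replicate 3 and low in Glut1Tg replicate 1, WT replicate 2 and WT replicate 5, with a fold of 1.16 (95% interval 0.88 to 1.52). The other 5 complex IV subunits, Cox6b1, Cox7a2, Cox7c, Cox7b and Cox6c, had folds from 1.27 (Cox6c) to 1.36 (Cox6b1), and Glut1Tg replicate 3 was the highest library in each.

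Cox7a2l, described here after its values were seen, encodes a protein (SCAF1) that joins complexes III and IV into supercomplexes and is known to exist in a shorter form in C57BL/6 mice. Cox7a2l, at chr17:83501918-83517330, was at 199.5, 809.6, 722 and 689 CPM in Glut1Tg replicates 1 to 4, against 707, 268, 626, 573 and 442 CPM in WT replicates 1 to 5. Glut1Tg replicate 1 and WT replicate 2 were the lowest libraries, and the 3 mouse group 1 libraries of Glut1Tg lay above every WT library except replicate 1 of WT, which they straddled. The group levels were 605 ± 275 CPM (SD, n = 4) in Glut1Tg and 523 ± 172 CPM (SD, n = 5) in WT. Its genotype fold was 0.815 (95% interval 0.499 to 1.33), opposite in direction to the group means. With no mouse group term its log2 fold change was 0.21 and all 36 members were positive, and without Glut1Tg replicate 1 it was 0.12.

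Levels of 6 members in every library are plotted with the genotype means. Cox5b and Atp5g2 are members whose genotypes do not overlap, and Cox6a1 had the largest fold. Atp5b and Cox7a2l show the libraries Glut1Tg replicate 1 and WT replicate 2 apart, high in Atp5b and low in Cox7a2l. In Cycs these libraries were the highest, with Glut1Tg replicate 3 close below WT replicate 2.

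**Figure D3:**
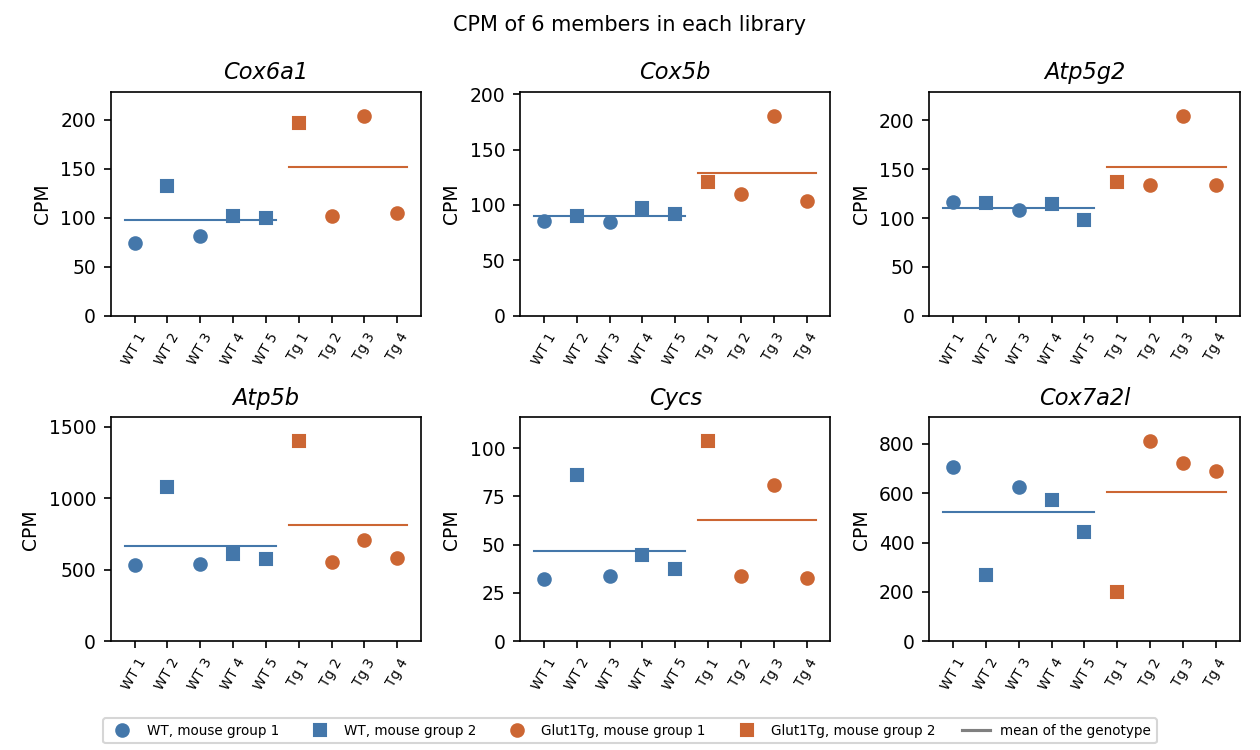
CPM (y axis, from 0) of Cox6a1, Cox5b, Atp5g2, Atp5b, Cycs and Cox7a2l in the 9 libraries (x axis); lines are genotype means, colour gives genotype and shape mouse group. Cox7a2l lies at 199 CPM in Glut1Tg replicate 1 and 268 CPM in WT replicate 2, and at 442 to 810 CPM in the other 7 libraries.

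In ATP synthase every one of the 15 members had a positive genotype difference, none of which passed the test. In the F1 head, where ATP is made, Atp5a1, the alpha subunit, was at 952, 798, 833 and 799.5 CPM in Glut1Tg replicates 1 to 4, against 739, 847, 745, 681 and 637 CPM in WT replicates 1 to 5. Atp5b, the catalytic beta subunit, at chr10:128083273-128090391, measured 531, 1079, 540.5, 607 and 576 CPM in the 5 WT libraries and 1397, 555, 711 and 585 CPM in Glut1Tg replicates 1 to 4. Atp5a1 and Atp5b were both highest in Glut1Tg replicate 1 and then WT replicate 2, with folds of 1.18 (95% interval 0.954 to 1.45) and 1.39 (95% interval 0.971 to 1.99). Atp5b stood out in those 2 libraries, whereas the highest level of Atp5a1 was 1.49 times its lowest. Atp5d, the delta subunit of the central stalk, was at 258, 176, 239 and 167 CPM in Glut1Tg replicates 1 to 4, against 129.8, 188, 147, 178 and 153 CPM in WT replicates 1 to 5. The fold for Atp5d was 1.44 (95% interval 1.14 to 1.80), the smallest unadjusted p of the 36 members, with Glut1Tg replicates 1 and 3 above WT replicate 2 and the genotypes overlapping.

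The genes Atp5g1, Atp5g2 and Atp5g3 all encode the c subunit of the proton-driven ring, with targeting sequences that differ and the same mature protein. Atp5g1 was at 88.8, 48.4, 97.6 and 47.6 CPM in Glut1Tg replicates 1 to 4, against 42.8, 64.9, 46.7, 46.6 and 37.2 CPM in WT replicates 1 to 5. Atp5g2, at chr15:102662864-102672352, measured 116, 115, 109, 114 and 98.1 CPM in the 5 WT libraries and 137, 134, 205 and 134 CPM in Glut1Tg replicates 1 to 4. Atp5g3 was at 286, 169, 276 and 162 CPM in Glut1Tg replicates 1 to 4, against 165, 209.8, 147, 153 and 134 CPM in WT replicates 1 to 5. All 3 were highest in Glut1Tg replicates 1 and 3, and only Atp5g2 had all Glut1Tg above all WT libraries. Folds were 1.57 (95% interval 1.04 to 2.37) for Atp5g1, 1.34 (95% interval 1.04 to 1.73) for Atp5g2 and 1.45 (95% interval 1.04 to 2.03) for Atp5g3. In their transcripts the last 228 bases of the longest reading frame were 85.1% identical between Atp5g1 and Atp5g2, 79.8% between Atp5g1 and Atp5g3 and 78.5% between Atp5g2 and Atp5g3.

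The other 9 subunits (Atp5e of the central stalk, Atp5o, Atp5f1, Atp5h and Atp5j of the peripheral stalk, Atp5c1 of the central stalk, and the membrane subunits Atp5j2, Atp5k and Atp5l) had folds from 1.13 (Atp5c1) to 1.33 (Atp5f1). Atp5e did not overlap between genotypes. WT replicate 5 was the lowest of the 9 libraries in 12 of the 15 ATP synthase members, against 10.3% of all genes, a pattern noticed after the values were seen.

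Some members have look-alike loci between which the counting could split reads. A near copy, at least 97% identical over 200 bases or more, was found for 11 members, and in 8 of them the copies in the table had over 1% of the member's counts. The largest share was 8.28% for Atp5g2, and Cox7a2l had 3.54%, so these members carry some uncertainty in level. In addition, 12 members overlap another annotated gene, 2 of them on the same strand, and the labels do not say whether reads were counted by strand.

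Per length of the principal transcript (CPM per kilobase, mean ± SD over 9 libraries), the most abundant members were Cox7a2l (520.1 ± 197), Uqcrh (485 ± 139), Cox4i1 (485 ± 125) and Atp5b (382 ± 158). The lowest were Atp5g1 (12.3 ± 4.56), Cycs (17.3 ± 9.0), Uqcrq (44.4 ± 16.7) and Cyc1 (59.1 ± 17.7). The means of neighbours within the top 4 differed by less than their SD between libraries, a comparison that does not pair them by library. Cyc1 lay above Uqcrq in every library except Glut1Tg replicate 3. Of the c subunit genes, Atp5g3 (265 ± 78.6) and Atp5g2 (176 ± 42.6) were well above Atp5g1 on this scale. The principal transcript taken for Atp5g1 is 4715 bp long, against 731 bp for Atp5g2 and 714 bp for Atp5g3. In CPM Atp5g1 was also below both in every library, but by a much smaller margin. The transcript taken for Cycs is 3123 bp long. The low places of Atp5g1 and Cycs thus depend on these lengths, and whether the cells use these transcripts was not tested. Dividing by the length of all annotated exons instead moved Atp5l from 205 to 17.3 CPM per kilobase, and changed the order below Cox7a2l, which was at 379. On that scale Cox8a (282) and Atp5a1 (249.2) came before Cox4i1 (239), Uqcrh (215) and Atp5b (173).

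Between mouse groups, with genotype as the second term in edgeR, 3 members passed an adjusted p of 0.05. Cyc1 and Atp5b rose in mouse group 2, by log2 fold changes of 0.55 (SE 0.175) and 0.77 (SE 0.23), with adjusted p of 0.0485 and 0.0399 (2 of 36 members, 13.1% of all genes called higher). Cox7a2l fell, with a log2 fold change of -1.09 (SE 0.315) and an adjusted p of 0.0355 (1 of 36, 11% of all genes called lower). At an unadjusted p under 0.05, 8 members differed, 5 higher and 3 lower (background 39.4%), so the share of members was below that of all genes. Cycs, at 0.89 (SE 0.345), did not pass, with an adjusted p of 0.0891 in edgeR. Uqcrh, at -0.51 (SE 0.211), had an adjusted p of 0.106 in edgeR. The medians, mouse group 2 over 1, were 0.21 for complex III, 0.03 for complex IV and 0.07 for ATP synthase, against -0.01 over all genes.

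The mouse group calls depended on single libraries. Glut1Tg replicate 1 and WT replicate 2 were both above the other 7 libraries for Cycs, Atp5a1 and Atp5b (background 22.6%) and both below for Uqcrh and Cox7a2l (19.7%). Without these 2 libraries no member was called, and the log2 fold changes were 0.28 for Cyc1, 0.16 for Atp5b and -0.38 for Cox7a2l. The proliferation genes, of which 9 of 10 were called higher in mouse group 2, moved with the same libraries, and their part in the result was not tested. The count of members called went from 3 to 0 without any one of Glut1Tg replicates 1, 2 or 4 or WT replicates 1, 2 or 3, and to 8 without Glut1Tg replicate 3. The share of all genes called in these refits is not given, so the changes are not a result about the members alone. In Cox4i1 and Cox7a2l all 4 mouse group 2 libraries lay below all 5 of mouse group 1 (background 11.4%).

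Whether the genotype difference itself depended on mouse group was tested with an interaction term, in which mouse group 2 has 1 Glut1Tg library. At an adjusted p under 0.05 in edgeR 0 members were called (background 0%), and the smallest member adjusted p was 0.741. Only Cox7a2l was under an unadjusted p of 0.05 (background 5.3%), with a coefficient of -1.25 on the log2 scale. DESeq2 and limma-voom called 0 members as well, and the share of all genes that they called is not given here.

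The plot of fitted differences sets the genotype and mouse group changes side by side for each member. In the genotype panel 35 points lie right of 0, and in the mouse group panel the members scatter to both sides.

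**Figure D4:**
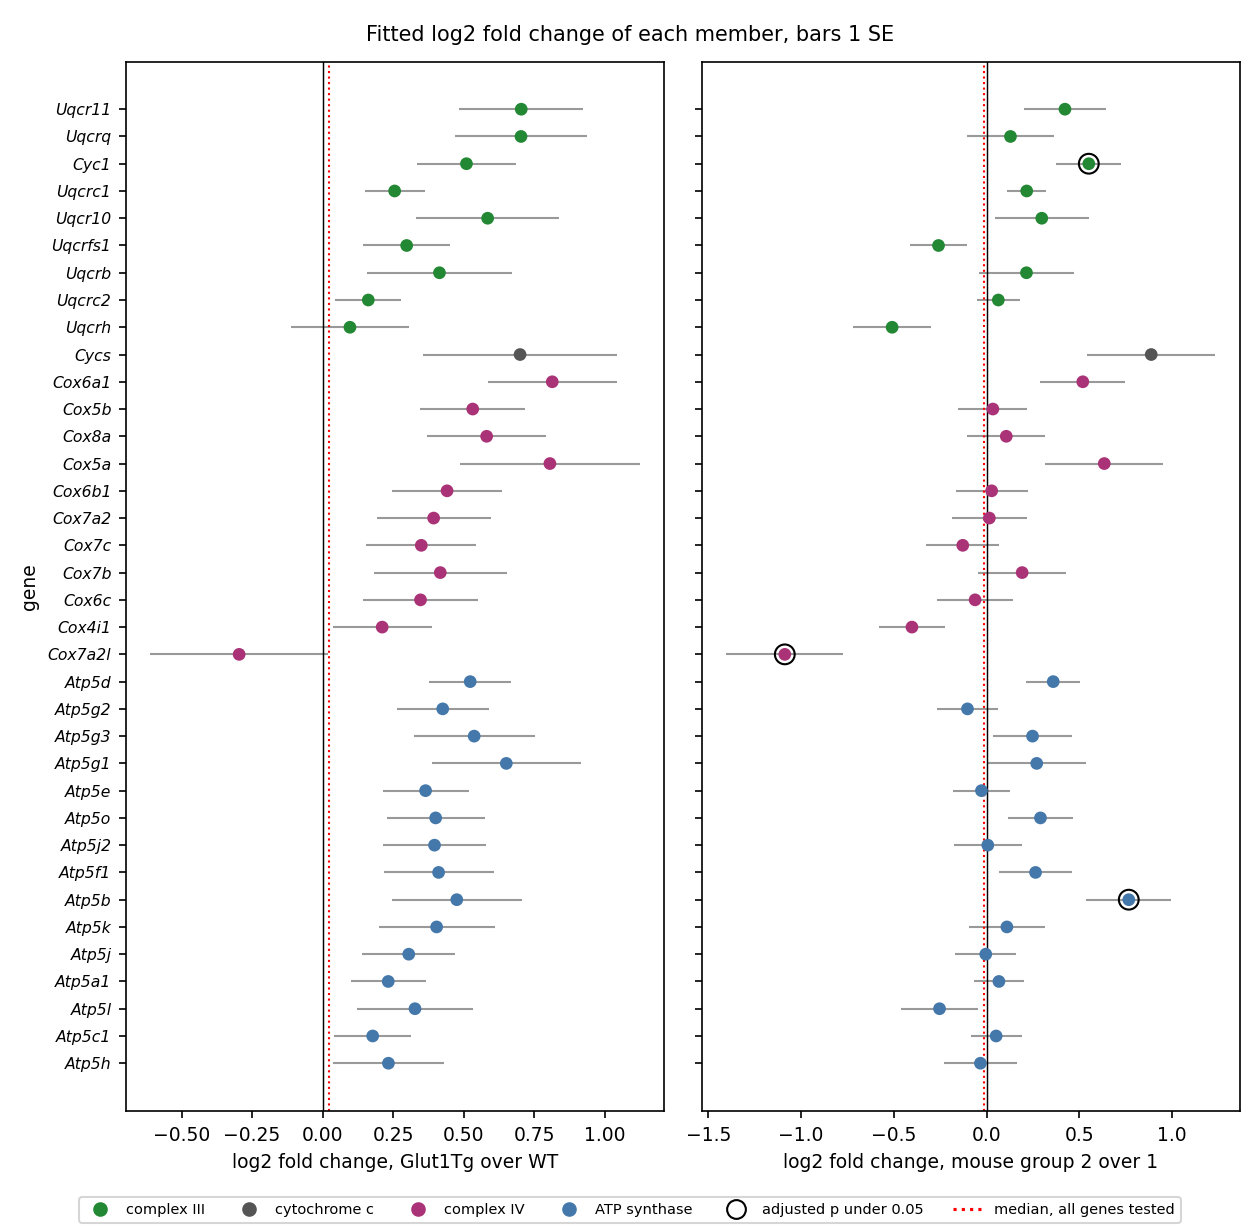
Fitted log2 fold change with 1 SE (x axis) of each of the 36 members (y axis), Glut1Tg over WT at left and mouse group 2 over 1 at right; colour gives the complex, the dotted line is the median over all genes tested (0.02 and -0.01), and rings mark an adjusted p under 0.05. The 3 ringed members, Cyc1, Cox7a2l and Atp5b, are in the mouse group panel.

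The make-up of the transcript pool shifted in 2 libraries. Summed CPM of ATP synthase over that of complex IV was 2.50 in Glut1Tg replicate 1 and 2.35 in WT replicate 2, and from 1.36 to 1.68 in the other 7. When Atp5b and Cox7a2l were left out, the ratio ran from 1.47 (Glut1Tg replicate 3) to 2.02 (WT replicate 2), with 1.96 in Glut1Tg replicate 1. Cox7a2l made up 10.9% of complex IV CPM in Glut1Tg replicate 1, 16.3% in WT replicate 2 and 23.3% in Glut1Tg replicate 3, against 28.1% to 36.8% elsewhere. Atp5b made up 30.4% and 28.1% of ATP synthase CPM in Glut1Tg replicate 1 and WT replicate 2, against 16.9% to 21.7%.

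**Figure D5:**
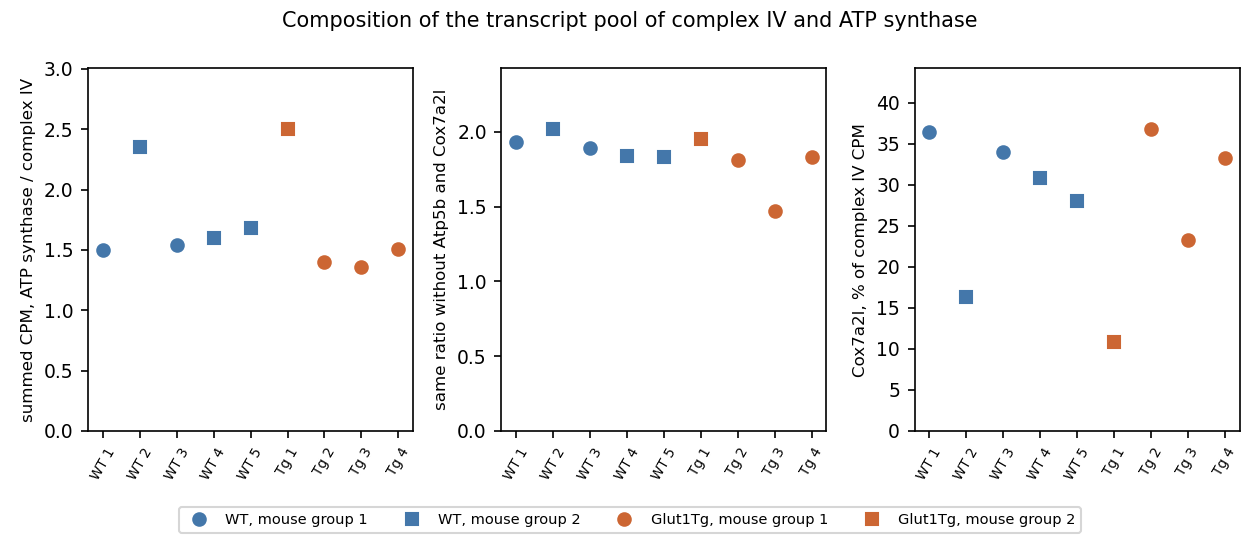
Ratio of summed CPM of ATP synthase to complex IV (left), the same without Atp5b and Cox7a2l (middle), and Cox7a2l as a percentage of complex IV CPM (right), in the 9 libraries, coloured by genotype and shaped by mouse group. Glut1Tg replicate 1 and WT replicate 2 lie at 2.50 and 2.35 on the left, and at 10.9% and 16.3% on the right.

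The same comparison was read in other gene lists of the pathway, none of which had a member called by genotype in edgeR. Complex I, the entry point for NADH, was like the members: 35 of 36 genes were positive, 14 were under an unadjusted p of 0.05 and the median log2 fold change was 0.38. Complex II had 4 of 4 positive with a median of 0.27. Its most abundant gene, Sdha, was at 234 ± 66.1 CPM (SD, n = 4) in Glut1Tg and 244 ± 49.8 CPM (SD, n = 5) in WT, so its fitted log2 fold change of 0.14, adjusted for mouse group, runs against the group means. The 6 nucleotide, phosphate and porin genes that supply ATP synthase were all positive, with a median of 0.35 and Slc25a3, the phosphate carrier, at 457 ± 34.8 CPM (SD, n = 4) in Glut1Tg and 409 ± 25.1 CPM (SD, n = 5) in WT. Among 8 further subunits and associated proteins 6 were positive (median 0.36), with Ndufa4 at 120.5 ± 37.8 CPM (SD, n = 4) in Glut1Tg and 86.7 ± 20.7 CPM (SD, n = 5) in WT.

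Assembly factors had lower median log2 fold changes by genotype: 0.10 for 6 genes of complex III assembly (5 positive), 0.19 for the 21 tested of complex IV (18 positive) and 0.27 for 3 of ATP synthase (3 positive). The difference of these medians from those of the subunits was not tested. By mouse group, 5 of the 21 complex IV assembly genes were called higher (13.1% of all genes) and 2 lower (11% of all genes), named here because they were called. The log2 fold changes were 1.01 for Coa3, 0.75 for Coa6, 0.84 for Taco1, 0.62 for Cox19 and 0.72 for Lrpprc, and -0.89 for Sco1 and -0.55 for Cox14. The subunits encoded in mitochondrial DNA had no common direction, with 3 of 6 positive and a median of -0.06. Of these mt-Co1, the catalytic subunit of complex IV, was at 6596 to 11043 CPM and mt-Cytb, the electron-carrying core of complex III, at 2838 to 5336 CPM. In contrast mt-Co2, mt-Co3 and mt-Atp6 had 0.15 to 2.40 CPM, so that their counts say little. WT replicate 5 was the lowest library in mt-Co1, mt-Cytb and mt-Atp8.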

How the data were processed

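Induced regulatory T cells were profiled by mRNA sequencing. RNeasy Plus Mini extraction, stranded TruSeq mRNA libraries and paired 75 bp reads from a HiSeq3000 are given per the labels' protocols. The build mm10 and the tools TopHat2, featureCounts, bcl2fastq and DESeq2 are named, without versions or settings, per the submitters' processing notes. Whole-number counts per gene, not normalized, fill one deposited table. A second deposited table holds log2 values of the authors, made in a way not stated, and served for 1 alternative only.

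The tests used edgeR 4.0.16 under R 4.3.3, with filterByExpr by genotype, TMM scaling, and a quasi-likelihood fit with mouse group and genotype as terms, p-values adjusted over all 14817 genes by the Benjamini-Hochberg method. Alternatives used DESeq2 1.42.0 and limma 3.58.1, other terms and left-out libraries. The scripts were tested on simulated data. No 2 libraries agreed within sampling noise. Intervals of folds are 95% intervals from the fit. Transcript lengths are those of GENCODE M21 (GRCm38), whose gene coordinates are given. Mean log2 levels by library use log2 CPM with a prior count of 2.

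The members and gene lists were chosen with earlier results of these data known. Values in every library are given for the 4 members of each complex with the smallest unadjusted genotype p, and for Uqcrfs1, Cyc1, Cycs, Cox4i1, Atp5a1, Atp5b and the Atp5g genes for their roles. Other lists give up to 3 genes with the highest mean. Some genes that this rule takes are not reported here. The NRF1 letters were shortened after promoter windows had been seen. Proteins were not used here.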

Additional observations from a re-analysis of the deposited data

Results flagged for a closer look

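Within each genotype, members were checked for a library far from the rest (Dixon's test, 95% level). Of 72 sets of values 11 held one. The sets come from the same libraries and are not independent, and the share over all genes was not taken. The count is therefore not a result about the members. High values of WT replicate 2 made up 6 of them: Uqcr10 at 76.8 CPM (other WT libraries 47.1 to 52.2), Uqcrb at 64.0 (43.6 to 47.8), Cycs at 86.4 (32.3 to 44.5), Cox5a at 111 (49.8 to 66.6), Atp5o at 147 (94.4 to 103) and Atp5b at 1079 (531 to 607). In Glut1Tg, replicate 3 was high for Cox7c at 160 CPM (other Glut1Tg libraries 87.3 to 97.8), Atp5g2 at 205 (134 to 137), Atp5l at 196 (105 to 110) and Atp5h at 277 (164 to 168). WT replicate 5 was low for Cox7c, at 74.0 CPM (84.5 to 87.3). WT replicate 2 is the WT library with high proliferation genes, and Glut1Tg replicate 3 the one with mast cell, myeloid and platelet markers; the part of either in these values was not tested.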

How the results depend on the processing

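By genotype, 0 members were called under all 21 alternatives, for which the shares of all genes called are not given here. The 4 medians moved less than the spread between libraries in 81 of 84 cases. Without both Glut1Tg replicates 1 and 3, an alternative chosen after seeing the data, they moved to 0.14 for complex III, 0.088 for ATP synthase and 0.10 for all members. Leaving out one library gave medians over all members of 0.24 to 0.49, against 0.41 in the main fit. The spread used as the yardstick was wide, with an SD for all members of 0.33 in Glut1Tg and 0.14 in WT. It includes Glut1Tg replicates 1 and 3, and the fall to 0.24 without Glut1Tg replicate 3 lay within it. The 81 of 84 cases therefore do not show that the medians are stable. The genotype log2 fold change of Cox7a2l turned positive with no mouse group term (0.21), in mouse group 1 only (0.15), without Glut1Tg replicate 1 (0.12), without both Glut1Tg replicate 1 and WT replicate 2 (0.12), without both Glut1Tg replicates 1 and 3 (0.17) and with a replicate block in place of the mouse group term (0.090). In mouse group 2 only, Uqcrh (-0.26), Cox4i1 (-0.086) and Atp5h (-0.032) turned negative, as did Uqcrh without Glut1Tg replicate 3 (-0.073) and Uqcrb without both Glut1Tg replicates 1 and 3 (-0.047). Leaving out one library, the genotype value of Cox7a2l ran from -0.52 to 0.12 and that of Uqcrh from -0.073 to 0.26. The cause was not tested.

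The 3 members called by mouse group became 1 with limma-voom, 1 with limma on the deposited log2 table and 1 with no genotype term. They became 0 with the replicate block, with or without the second term, 0 without both Glut1Tg replicate 1 and WT replicate 2, and 0 without both Glut1Tg replicates 1 and 3, and leaving out one library gave 0 to 8. With DESeq2 4 were called. Shares of all genes called by mouse group under these alternatives are not given here. Over 19 alternatives the adjusted p ran from 0.0175 to 0.496 for Cyc1, 0.0104 to 0.627 for Atp5b and 0.00296 to 0.295 for Cox7a2l, with no change of sign. The labels do not say that a replicate number is shared between genotypes. Same-numbered libraries deviated from their genotype means with correlations of -0.51, -0.59, 0.23 and -0.21, and 0 of 4 Glut1Tg libraries correlated best with their own number. Most same-numbered libraries lie in different mouse groups, which these deviations do not take out, so the correlations cannot decide whether numbers pair libraries. With the replicate block and mouse group the genotype median over all members was 0.38, with 0 called. With 4 against 5 libraries and a median SE of 0.20 for members, log2 differences of the size of these medians did not pass the adjusted threshold.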

Other observations

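Regulators of respiratory genes were read in a list of 12 genes, 11 of which were tested; 7 had a positive genotype log2 fold change (median 0.13) and none was called in edgeR. The most abundant of them, Myc, was at 209 ± 154 CPM (SD, n = 4) in Glut1Tg and 139.7 ± 67.8 CPM (SD, n = 5) in WT. By mouse group in edgeR, 1 of the 11 was called higher (13.1% of all genes) and 3 lower (11% of all genes). Tfb1m, a mitochondrial rRNA methyltransferase, was higher in mouse group 2 by a log2 fold change of 1.38 (edgeR adjusted p = 0.00972). Tfb2m and Tfam, which start transcription of mitochondrial DNA, were lower, by log2 fold changes of -1.29 and -0.66 (edgeR adjusted p of 0.0012 and 0.00659), and so was Yy1, by -0.54 (edgeR adjusted p of 0.0327).

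Tissue forms of complex IV subunits were nearly absent: Cox6a2 and Cox8b, of heart and muscle, had no count in any library, Cox4i2 had at most 0.08 CPM, and Cox7a1 had 0.98 to 2.28 CPM. Cox6b2, a testis form, was at 4.91 CPM in Glut1Tg replicate 3 and at 1.04 to 2.31 CPM in the other 8 libraries.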
